A study of Homo sapiens with 4 samples.

Results

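The response of Caco-2 cells to apical cholate was measured as the log2 difference between 1 array of cholate-treated cells and 1 array of vehicle-treated cells, both grown on Transwell inserts. A probe set entered if it had 1 annotated gene symbol and a mean over the 4 arrays of the study at or above the 40th percentile of all probe sets. That floor was a log2 intensity of 4.84, and 13613 of 33297 probe sets met both conditions. For counts of genes, the probe set with the highest mean stood for its gene, which left 12900 of 18417 measured genes. Just inside the floor lay CYP2E1, TFAP2A and LRRC14B with means of 4.85, and just outside lay CD164L2, CTSF and ZC3H18-DT with means of 4.84.

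Caco-2 cells come from a human colorectal adenocarcinoma and differentiate towards absorptive enterocytes once they are confluent. They were grown on collagen-coated porous inserts, which part an apical from a basolateral compartment, until the electrical resistance across the layer was stable. The treated cells received 2 mM sodium cholate in the apical compartment for 3 h, in HEPES-buffered Hank's solution free of calcium, with serum-free DMEM below. The control cells received vehicle for 3 h, and the sources used here do not say whether this was the same calcium-free solution. The sample labels state 21 days of differentiation, while the growth protocol gives a range of 14 to 21 days after seeding for inserts. The other 2 arrays hold the same treatments of cells on plates, which the labels also place at 21 days and the protocol at 14 days. They set the floor and are a separate comparison on another support, not a replicate. RNA from 3 samples was pooled on each array, so the spread between cultures cannot be seen, and no difference below has a replicate check or a p-value.

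Cholate is a primary bile acid, made from cholesterol in the liver. Enterocytes of the ileum take bile acids up through the apical transporter SLC10A2, bind them with FABP6 and release them through SLC51A and SLC51B, and the nuclear receptor FXR (NR1H4) responds to them by inducing genes such as NR0B2 and FGF19. Bile acids also act as detergents on membranes and can signal through surface receptors. Immediate early genes, which are transcribed without the need for new protein, serve widely as a readout of such acute signals.

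Both Transwell arrays carried the epithelial profile of the labelled line. All 15 measured epithelial identity markers lay above the floor, among them EPCAM, the cadherin genes CDH1 and CDH17, and VIL1, with a median level of 11.4 log2 in each array. Of markers of other cell types, 3 of 10 leukocyte, 5 of 12 fibroblast and 4 of 12 endothelial genes lay above the floor. Some lay well above it: CD68 read 8.71 and 8.81 in vehicle and cholate, CD14 read 8.57 and 8.79, and COL1A1 read 7.57 and 7.60. Over all measured markers of each type, the median levels were 3.44 and 3.41, 4.22 and 4.16, and 4.21 and 4.33 in vehicle and cholate, all under the floor. The arrays had medians of 5.64 (vehicle) and 5.69 (cholate), and their values correlated at r of 0.995 across the 13613 probe sets. Both arrays carry the same probes, and the probe sets are not independent samples.

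Cholate and vehicle differed little for most genes on Transwell. Among probe sets with 1 symbol, the differences that stood out were more often towards lower values in cholate. The median difference was -0.01 log2, and 88.5% of the probe sets (12053) lay within 0.25 of 0. A difference was called when it reached 1.5-fold, 0.585 on the log2 scale. By probe sets, 52 were called higher (0.382%) and 102 lower (0.749%). The balance was the other way for 5198 probe sets above the floor without a listed symbol, with 298 higher and 137 lower. Those entered no comparison. By genes, 46 were called higher (0.357%) and 95 lower (0.736%), and these shares are the background for every gene count below. For counts by sign the background is 46.4% of genes above 0 and 53.5% below. At 2-fold, 3 genes were higher (SNORD14E, EGR1 and FOSB) and 15 were lower. The balance depended on the scaling of the arrays: centring each array on its median gave 28 genes higher and 126 lower, quantile normalization gave 34 and 109, and cyclic loess gave 38 and 106. The 95 lower genes were called under each of these scalings, whereas 28, 32 and 36 of the 46 higher genes were. SIX2 (0.587) and NACAD (0.588) lay just inside the upper limit and SNORD78 (0.578) and ABLIM3 (0.576) just outside, while SNORA74A (-0.587) and TMEM40 (-0.589) lay just inside the lower limit and AMOT and MRGPRX3 (both -0.58) just outside.

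**Figure D1:**
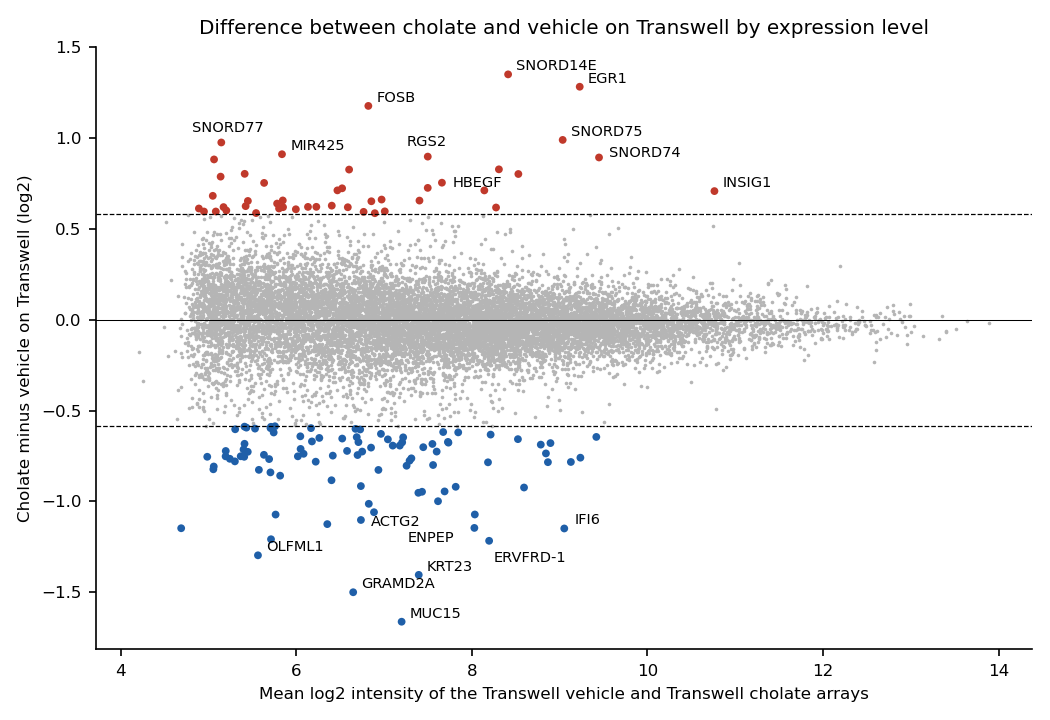
Difference between cholate and vehicle on Transwell (log2, vertical axis) against the mean log2 intensity of the 2 Transwell arrays (horizontal axis) for the 12900 genes above the floor. The 46 genes at least 1.5-fold higher are red, the 95 at least 1.5-fold lower are blue, the dashed lines mark 1.5-fold, and the grey cloud narrows from left to right.

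The scatter around 0 narrowed with expression level, which sets how much a difference of a given size stands out. In the lowest quartile of mean levels the median absolute difference was 0.131 log2 and the central 90% of probe sets ran from -0.33 to 0.35. In the highest quartile these were 0.062, and -0.19 to 0.15. Of the 52 probe sets called higher, 29 lay in the lowest quartile and 5 in the highest, and of the 102 called lower, 39 and 10 did. For 7 of the 46 higher genes the vehicle value lay under the floor, and for 6 of the 95 lower genes the cholate value did, so their sizes rest on a value near background. Where a gene had at least 2 member probe sets (531 genes), their differences spanned a median of 0.067 log2, with a 95th percentile of 0.44. Of the 11 called genes with several such probe sets, all of them passed in 5 (DPPA3, LYRM9, RNU6ATAC, SEPTIN7P13 and XAGE2), and the probe sets disagreed most for CCDC88C (-0.92 and -0.24) and ARHGAP23 (-0.65 and -0.05). The probe sets of LYRM9 had equal values, as did those of XAGE2, so their agreement is no separate check. Those of SEPTIN7P13 were nearly equal (-0.784 and -0.782).

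Immediate early transcription factors gave the largest differences among protein-coding genes called higher. EGR1, a zinc finger factor induced through MAP kinase and SRF signalling, read 8.59 log2 in vehicle and 9.87 in cholate, a difference of 1.28 (2.43-fold). FOSB, a subunit of the AP-1 transcription factor, read 6.23 and 7.41, a difference of 1.18 (2.26-fold). JUNB, the AP-1 partner subunit, read 7.13 and 7.86 (0.73). NR4A2, an orphan nuclear receptor, also stood apart in cholate, although its vehicle value of 4.74 lay under the floor and its cholate value was 5.53 (0.79). These 4 were the called members of 50 immediate early genes above the floor, in the lists of AP-1 subunits, EGR and NR4A factors, KLF factors, and ZFP36, IER and BTG genes. Of the 50, 39 lay above 0 and their median was 0.16 log2, against 46.4% above 0 and a median of -0.01 over all genes. Over all genes 0.357% were called higher and 0.736% lower. None of the 50 was called lower, which is near that share.

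Within these lists the size of the difference varied by family. Of 13 AP-1 genes, 11 lay above 0 (median 0.29): ATF3, a stress-responsive member of the ATF family, read 5.98 and 6.52 (0.55), and JUN and FOS themselves lay at 0.34 and 0.26. All 7 EGR and NR4A genes lay above 0, with NR4A1 at 7.21 and 7.78 (0.57) just short of the call. One of them, NR4A3 (4.549 and 4.843, 0.29), lay under the floor in both Transwell arrays. It entered through its plate cholate value of 5.30, so its place in these counts rests on the plate. The 18 ZFP36, IER and BTG genes, which include RNA-destabilising and antiproliferative proteins, had 12 above 0 and a median of 0.10, led by CSRNP1 (0.44) and PPP1R15A (0.39). The 12 KLF factors were closest to the background, with a median of 0.07 and KLF4 at 0.27. Under each scaling these 4 medians stayed above 0.

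Among feedback regulators that immediate early signalling induces, the picture was mixed. RGS2, which speeds the hydrolysis of GTP by G alpha subunits, read 7.05 in vehicle and 7.95 in cholate (0.90, 1.86-fold), and its relative RGS16 read 5.39 and 5.96 (0.57). The other 6 RGS genes above the floor lay within 0.25 of 0. Of 16 MAP kinase phosphatase and Sprouty genes, DUSP1 lay at 0.51 and SPRY4 at 0.34, whereas DUSP14 was the called member and was lower, at 7.37 and 6.71 (-0.66). HBEGF, a membrane-anchored ligand of the EGF receptor, read 7.28 and 8.04 (0.76), while the receptor gene EGFR (-0.34) and its feedback inhibitor ERRFI1 (-0.35) lay below 0. Among 20 NF-kappaB feedback, cytokine and chemokine genes, the inhibitors NFKBIZ (0.42) and NFKBIA (0.32) lay above 0 and the cytokine IL18 was called lower, at 7.69 and 6.93 (-0.76).

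The EGR1 and ACTG2 promoters are shown because these genes moved in opposite directions while each held a pair of CArG boxes, the element that binds the serum response factor SRF. The sequences are from RefSeq on build GRCh38.p14, both on the plus strand, 5' to 3', from position -130 to -41 relative to the start site, with the CArG boxes in capitals. They lie at chr5:138465349-138465438 and chr2:73892878-73892967.
EGR1: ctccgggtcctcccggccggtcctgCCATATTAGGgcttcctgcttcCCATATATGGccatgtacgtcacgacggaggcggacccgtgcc
ACTG2: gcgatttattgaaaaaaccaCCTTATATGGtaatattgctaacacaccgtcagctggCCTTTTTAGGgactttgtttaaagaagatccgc
The boxes begin at -105 and -83 in EGR1 and at -110 and -73 in ACTG2. Across windows from 250 bases before to 50 after the start site, on both strands, a CArG box was found in 454 of 35116 promoters (1.29%) and in 171 of 10236 promoters of genes above the floor (1.67%). It was found in 2 of 27 promoters of genes called higher (EGR1 and PCDHA5) and in 1 of 72 of genes called lower (ACTG2). The cyclic AMP response element, searched as the palindrome TGACGTCA, was found in 386 of the 10236 (3.77%), in 1 of the 27 (NACAD) and in 1 of the 72 (CLDN6). Among the immediate early genes, 2 of 37 promoters held a CArG box and 5 held that element.

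ACTG2, the smooth muscle gamma actin, read 7.29 in vehicle and 6.18 in cholate (-1.10, 2.15-fold lower). TAGLN, which encodes the actin-binding protein transgelin, read 7.35 and 6.52 (-0.83). These were the called members of 18 smooth-muscle type actin and SRF target genes above the floor, of which 16 lay below 0, with a median of -0.17 over the 18 and of -0.09 over all 24 measured. CALD1 (-0.37), VCL (-0.35) and TPM4 (-0.29), which encode caldesmon, vinculin and a tropomyosin, lay below 0 without reaching the call. CArG boxes were found in 8 of the 15 promoters available for this list. The list was drawn up of SRF targets and SRF binds this box, so that share follows from the choice of genes. The YAP and TEAD target list leaned the same way, with 16 of 22 below 0 and a median of -0.14. VGLL1, a TEAD cofactor, read 8.11 and 7.11 and was called lower, TEAD1 lay at -0.56, and CCN2, a classical YAP target, lay at 0.47. The directions of these 2 medians held under each scaling.

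**Figure D2:**
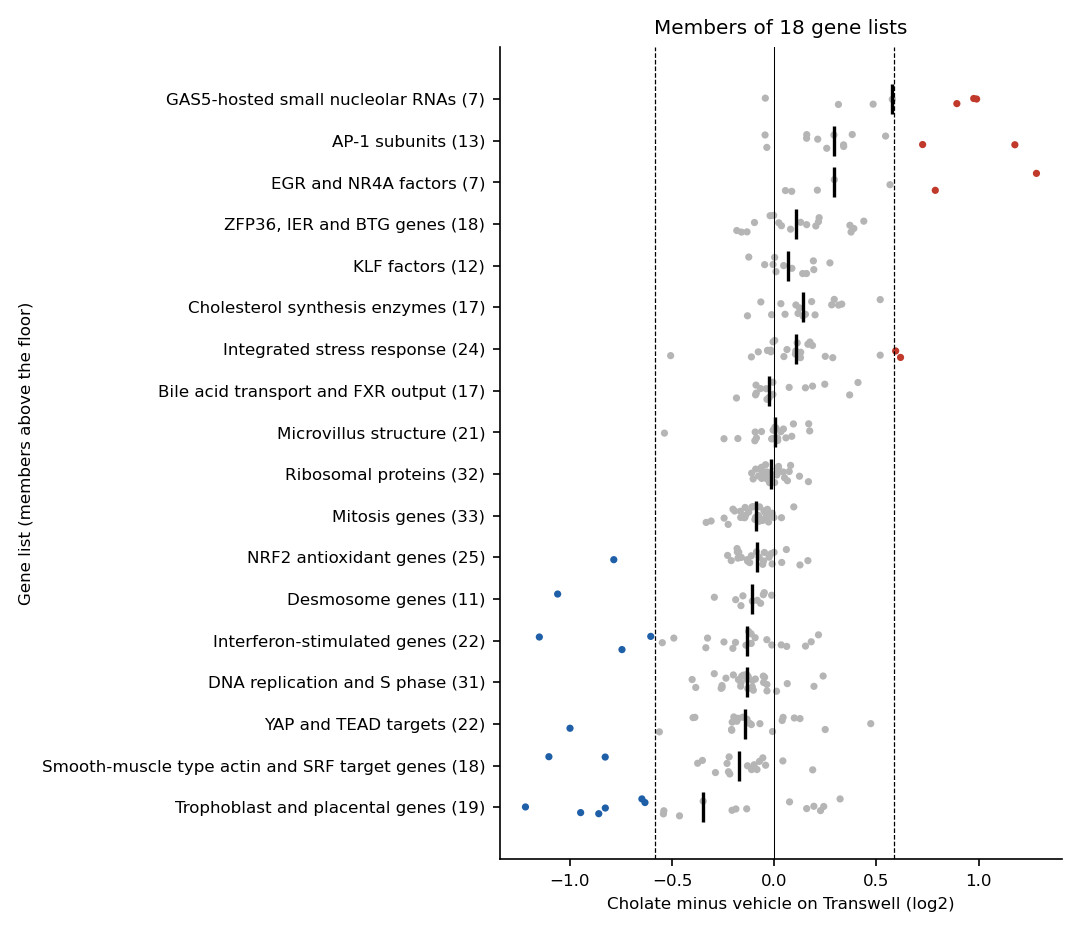
Differences between cholate and vehicle on Transwell (log2, horizontal axis) for members above the floor of 18 gene lists, with their number in brackets. Each point is a gene (red at least 1.5-fold higher, blue at least 1.5-fold lower), the black bar is the median and the dashed lines mark 1.5-fold. The bars run from 0.58 for small nucleolar RNAs of the GAS5 gene to -0.35 for trophoblast and placental genes.

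The genes with the lowest values in cholate relative to vehicle came from several families. MUC15, a membrane mucin, had the largest difference of all genes, at 8.03 and 6.37 (-1.66, 3.17-fold lower). GRAMD2A, a protein of contacts between endoplasmic reticulum and plasma membrane, read 7.40 and 5.90 (-1.50), and the keratin KRT23 read 8.10 and 6.69 (-1.41). Their families did not share this. Apart from MUC15, the 7 other mucins above the floor lay between -0.20 (MUC20) and 0.23 (MUC21), and apart from KRT23 the keratins lay between -0.23 (KRT18) and 0.08 (KRT13). ENPEP, the brush border aminopeptidase A, read 8.60 and 7.45 (-1.15), while the other 10 brush border peptidases lay between -0.29 (CPVL) and 0.26 (ANPEP).

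Junction genes showed a like pattern of a few large differences. The connexins GJA5 (6.92 and 5.79, -1.13) and GJA1 (7.44 and 6.75, -0.69), which form gap junction channels, were the called members of 10, and GJB1 lay at 0.29. DSC3, a desmosomal cadherin, read 7.41 and 6.35 (-1.06). All 11 desmosome genes above the floor lay below 0 (median -0.11), but the next after DSC3 was PPL, periplakin, at -0.29. CLDN6, a claudin of early epithelia, read 7.87 and 6.91 (-0.95) and was the called member of 14 claudins, while CLDN5 (0.34) and CLDN23 (0.32) lay above 0. No adherens junction gene of 11 and no tight junction plaque or MARVEL gene of 17 was called, with VCL at -0.35 and AMOT, at 7.45 and 6.87, just short of the limit. Over all genes 0.357% were called higher and 0.736% lower, so lists this short would seldom hold a called gene.

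Several called genes encode proteins of membranes, matrix and lipid handling. OLFML1, a secreted olfactomedin-like glycoprotein, read 6.21 and 4.91 (-1.30), and it was the called member of 30 extracellular matrix and integrin genes, 23 of which lay below 0 (median -0.12). ANXA1, an annexin that binds phospholipid in the presence of calcium, read 7.33 and 6.32 (-1.01), and 17 of 21 annexin and S100 genes lay below 0 (median -0.08). OLR1, a receptor for oxidised lipoprotein, read 8.57 and 7.50 (-1.07). RAB31, a GTPase of vesicle traffic, read 8.16 and 7.22 (-0.95), and STS, the steroid sulfatase, read 9.06 and 8.13 (-0.92). RIPOR2 read 5.26 and 4.11 (-1.15), with its cholate value under the floor, and the noncoding EOLA1-DT read 6.32 and 5.11 (-1.21).

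The cholate array also had lower values of genes known from placental trophoblast, although the line is labelled colorectal. In bulk RNA, fewer cells of a type and less RNA per cell cannot be told apart. ERVFRD-1, an envelope protein of retroviral origin that fuses trophoblast cells, read 8.81 and 7.59 (-1.22). CYP19A1, the aromatase that makes oestrogens, read 7.91 and 6.96 (-0.95), and GCM1, a transcription factor of the fusing trophoblast, read 6.25 and 5.39 (-0.86). With XAGE2 (-0.83, from 2 probe sets of equal value), ERVW-1 (-0.65) and GATA3 (-0.63), 6 of 19 members above the floor were called lower and 0 higher. Of the 19, 13 lay below 0, and their median was -0.35, while that of all 27 measured members was -0.08. The enteroendocrine list had 2 of 8 members called lower, and the median of the 8 was -0.02. One was the incretin hormone GIP (5.76 and 5.04, -0.71). The other, NPPB (6.30 and 5.23, -1.07), is a natriuretic peptide known from the heart, so its call does not speak for gut hormones. Motilin, MLN, lay at 0.34. No hepatocyte-type plasma protein gene of 24 and no secretory lineage or trefoil gene of 11 was called. With 0.357% of all genes called higher and 0.736% lower, that is near the background and sets these lists apart from no other.

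**Figure D3:**
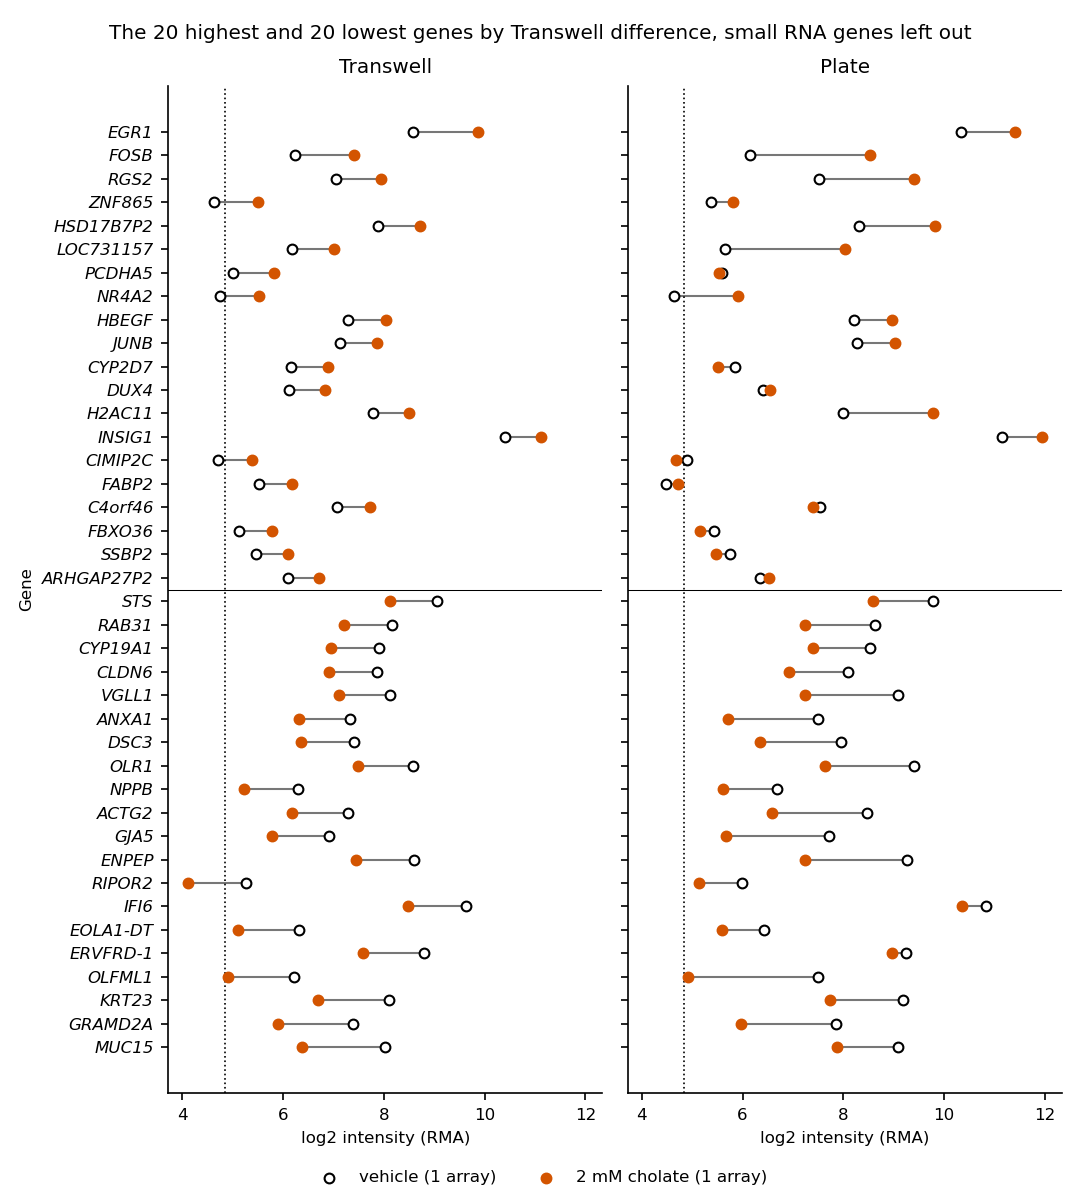
Log2 intensity (horizontal axis) in vehicle (open circles) and in 2 mM cholate (filled circles) for the 20 genes highest and the 20 lowest by Transwell difference, small RNA genes left out, on Transwell (left) and on the plate (right). Each circle is 1 array of pooled RNA and the dotted line is the floor. EGR1, FOSB and RGS2 were higher in cholate on both supports, PCDHA5 and CYP2D7 were higher on Transwell alone, and the 20 lowest genes were lower on both.

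Interferon-stimulated genes, which encode antiviral effectors, lay mostly below 0 in cholate. IFI6 read 9.63 and 8.48 (-1.15), IFIT1 read 7.07 and 6.32 (-0.75) and IFITM3 read 7.03 and 6.43 (-0.60). These were the called members of 22, 17 of which lay below 0, with a median over all 28 measured of -0.11. IFITM2 (-0.55) and OAS3 (-0.49) came closest among the rest. The IFITM genes are closely similar copies, so their probe sets may share signal.

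Cholesterol synthesis genes lay mostly above 0, with small differences. INSIG1, which holds the SREBP precursor in the endoplasmic reticulum when sterols are plentiful and is itself an SREBP target, read 10.41 and 11.12 (0.71, 1.63-fold). It was the called member of 13 genes of SREBP control and sterol uptake, 6 of which lay above 0 and 7 below. Of 17 cholesterol synthesis enzymes, 14 lay above 0 with a median of 0.14 log2, where 46.4% of all genes lay above 0. Of the 17, 0 were called, which is near the shares over all genes, 0.357% higher and 0.736% lower. The largest differences were in MSMO1 (0.52), NSDHL (0.33), SQLE (0.31) and HMGCS1 (0.29), enzymes from the start and the later steps of the pathway. The pseudogene HSD17B7P2 read 7.89 and 8.72 (0.83). Its parent HSD17B7 encodes a sterol reductase, and signal from near-identical copies cannot be told apart on the array. Among fatty acid synthesis genes the desaturase FADS2 went the other way, at 8.41 and 7.84 (-0.57).

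Genes of bile acid transport and the FXR pathway showed no called difference in either direction. At the shares over all genes, 0.357% higher and 0.736% lower, a list of this length would seldom hold a called gene. Of 17 above the floor, 6 lay above 0 and the median was -0.03 log2. FABP6, the ileal bile acid binding protein, read 6.41 and 6.82 (0.41), NR0B2, a repressor induced by FXR, read 4.77 and 5.14 (0.37), and SLC51B, a subunit of the basolateral exporter, read 9.61 and 9.85 (0.25). NR0B2 was under the floor in vehicle. SLC10A2, the apical uptake transporter, read 5.18 and 5.17. FGF19, the hormone that FXR induces, was not a member, with values of 4.69 and 4.78 under the floor. FABP2, the intestinal fatty acid binding protein, was a called gene, at 5.52 and 6.17 (0.66).

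Stress pathways differed from each other. In the integrated stress response list, 16 of 24 genes lay above 0 (median 0.10), and DDIT3, the transcription factor CHOP (7.97 and 8.58, 0.62), and CHAC1, an enzyme that degrades glutathione (6.47 and 7.06, 0.59), were called. Centring the arrays on their medians left 0 of them called and quantile normalization left 1. TRIB3, a target of CHOP, lay at 0.52, while the amino acid transporter SLC7A5 lay at -0.51. PMAIP1, the apoptosis gene NOXA, read 5.11 and 5.74 (0.63). In the NRF2 antioxidant list, 21 of 25 genes lay below 0 (median over all measured -0.10), and HMOX1, heme oxygenase, was the called member, at 8.58 and 7.79 (-0.79). Of 21 heat shock genes, 10 lay above 0 and 11 below, with a median of -0.01. The small heat shock protein HSPB8 was the called member and was lower (7.96 and 7.24, -0.73), and HSPA1L was highest at 0.57. Over all genes 0.357% were called higher and 0.736% lower.

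None of the proliferation genes was called, and most lay slightly below 0. Over all genes 0.357% were called higher, 0.736% were called lower, and 53.5% lay below 0. Of 31 DNA replication genes, 27 lay below 0 (median -0.13), with the licensing factor CDT1 at -0.40 and MCM4 at -0.29. Of 33 mitosis genes, 31 lay below 0 (median -0.09), with MKI67, the proliferation marker Ki-67, at -0.31. Of 17 intestinal stem cell and WNT target genes, 14 lay below 0, with CD44 at -0.42 and LGR5 at -0.39. Set beside them, 32 ribosomal protein genes ranged from -0.11 to 0.17, and 18 of those 32 lay below 0. The amino acid transporters SLC7A2 (9.52 and 8.74, -0.78) and SLC7A8 (9.21 and 8.48, -0.74), both carriers of the SLC7 family, were the called members of 21 amino acid and peptide transporters. SLC15A2, a peptide transporter outside that list and chosen after its values were seen, was also called lower (7.11 and 6.39, -0.73).

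Small noncoding RNAs made up a larger share of the genes called higher than of the genes measured. Of 206 genes above the floor with a small RNA prefix, 11 were called higher (5.34%) and 2 lower, and 71.4% lay above 0, with a median of 0.13 log2. The other 12694 genes had 35 higher (0.276%), 93 lower and a median of -0.01. SNORD14E, a C/D box small nucleolar RNA that lies in an intron of HSPA8, read 7.74 and 9.09 (1.35, 2.55-fold), and HSPA8 itself read 13.43 and 13.37 (-0.06). SNORD75 (8.54 and 9.53, 0.99), SNORD77 (4.66 and 5.63, 0.98) and SNORD74 (9.001 and 9.895, 0.89) all come from the GAS5 transcript, and the vehicle value of SNORD77 lay under the floor. Of 7 GAS5 small nucleolar RNAs measured, 6 lay above 0 (median 0.58), and SNORD79 lay at -0.04. SNORD50B read 8.13 and 8.93 (0.80).

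Values of some small RNAs were set beside those of their host genes. The pairs were picked after the values of the small RNAs were seen, so the direction of the small RNAs is set by that choice. SNORD4B lay at 0.65 and its host RPL23A at -0.05, SNORD43 at 0.57 and its host RPL3 at 0.01, and SNORA29 at 0.62 and its host TCP1 at -0.00. The spliceosomal RNAs RNU6ATAC (5.26 and 6.01, 0.75) and RNVU1-19 (6.64 and 7.30, 0.66) were called higher, and RNU5D-1 (8.15 and 7.53, -0.62) and SNORA74A (6.05 and 5.46, -0.59) were the small RNAs called lower. Copies of such genes are near-identical, so their values are uncertain as to the copy. The class medians were 0.14 for 70 SNORD genes, 0.13 for 54 SNORA genes, 0.13 for 52 microRNA precursors and 0.27 for 14 snRNA genes, against 0.02 for 255 long noncoding RNAs. Another small RNA class, SCARNA, did not share this: of 12 genes 6 lay above 0, with a median of 0.02. The snRNA genes were taken by RefSeq class, and the 10 genes with the RNU prefix had a median of 0.12.

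**Figure D4:**
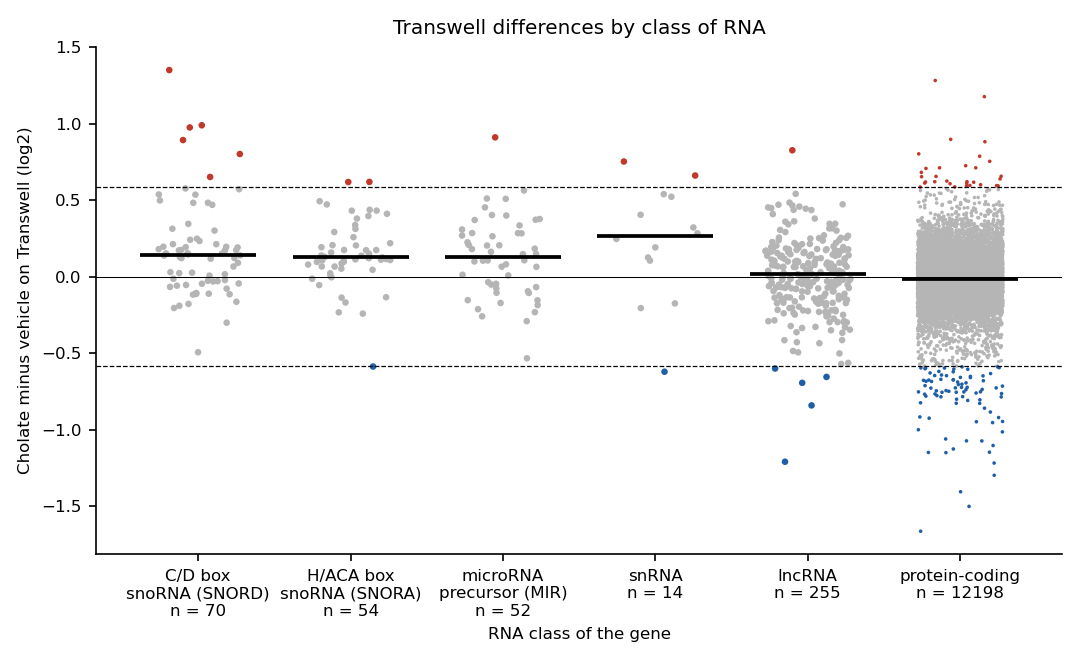
Difference between cholate and vehicle on Transwell (log2, vertical axis) for genes above the floor by class of RNA, with the number of genes in each class. Points at least 1.5-fold higher are red and at least 1.5-fold lower blue, the black bar is the class median and dashed lines mark 1.5-fold. The bars of the small RNA classes shown lie between 0.13 and 0.27 and those of long noncoding and protein-coding genes near 0. The SCARNA class, with a median of 0.02, is not shown.

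MIR425 was the called member of the 52 microRNA precursors and read 5.38 and 6.29 (0.91, 1.88-fold). MIR191 lies beside it within DALRD3 and read 6.19 and 6.56 (0.37), while the host DALRD3 lay at 0.06. The lowest precursor was MIR15A, at 6.82 and 6.29 (-0.53), and its host, the long noncoding RNA DLEU2, was called lower (7.53 and 6.83, -0.69). DLEU2 was singled out after its values were seen. The probe sets measure the precursor gene and not its mature arms, and 49 of the 52 were found in the RefSeq sequence table. A mature sequence of each of these precursors is shown to identify a product, with the seed (bases 2 to 8) in capitals. For MIR425 it is the 3p arm, the arm held by the table used here. On GRCh38.p14 they lie on the minus strand, at chr3:49020159-49020180, chr3:49020672-49020694 and chr13:50049167-50049188.
hsa-miR-425-3p: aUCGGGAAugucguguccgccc
hsa-miR-191-5p: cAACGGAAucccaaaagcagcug
hsa-miR-15a-5p: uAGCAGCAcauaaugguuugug
These 3 sequences have no seed in common.

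Histone genes, whose transcripts mostly lack a poly(A) tail, lay above 0 in 37 of 52 cases (median 0.09), and H2AC11 was the called member, at 7.79 and 8.50 (0.71). H4C9 (0.55) and H3C10 (0.50), chosen after their values were seen, came next. Many histone genes are near-identical, so signal may be shared between them. A few other called genes have the same limit. DUX4 was higher at its best expressed probe set (6.11 and 6.82, 0.71), while its 12 probe sets ranged from 0.23 to 0.71 and 2 of them passed. PCDHA5 (5.01 and 5.81, 0.80) shares exons with the other alpha protocadherins, and CYP2D7 (6.16 and 6.88, 0.72) is a pseudogene close to CYP2D6. Of the rest of the highest genes, the zinc finger gene ZNF865 read 4.62 and 5.50 (0.88), the noncoding LOC731157 read 6.19 and 7.01 (0.83) and CIMIP2C read 4.71 and 5.39 (0.68). C4orf46 (0.66), the F-box gene FBXO36 (0.65), SSBP2 (0.64) and the pseudogene ARHGAP27P2 (0.63) completed the 20 highest.

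Plate values of the genes called on Transwell were set beside the Transwell values, with no array in common. On the plate, 192 genes were higher (1.49%) and 303 lower (2.35%) in cholate. Of the 46 genes called higher on Transwell, 23 (50%) were also called higher on the plate and 37 lay above 0 there, where 44.9% of all genes did. Of the 95 called lower, 65 (68.4%) were called lower on the plate and 85 lay below 0, where 55.1% of all genes did. Over all 13613 probe sets the responses correlated at r of 0.456, a description across probe sets, which are not independent samples. The size was larger on the plate for 22 of the 46 and for 51 of the 95. These genes were chosen by their Transwell size, so these counts are not an even comparison of the supports.

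**Figure D5:**
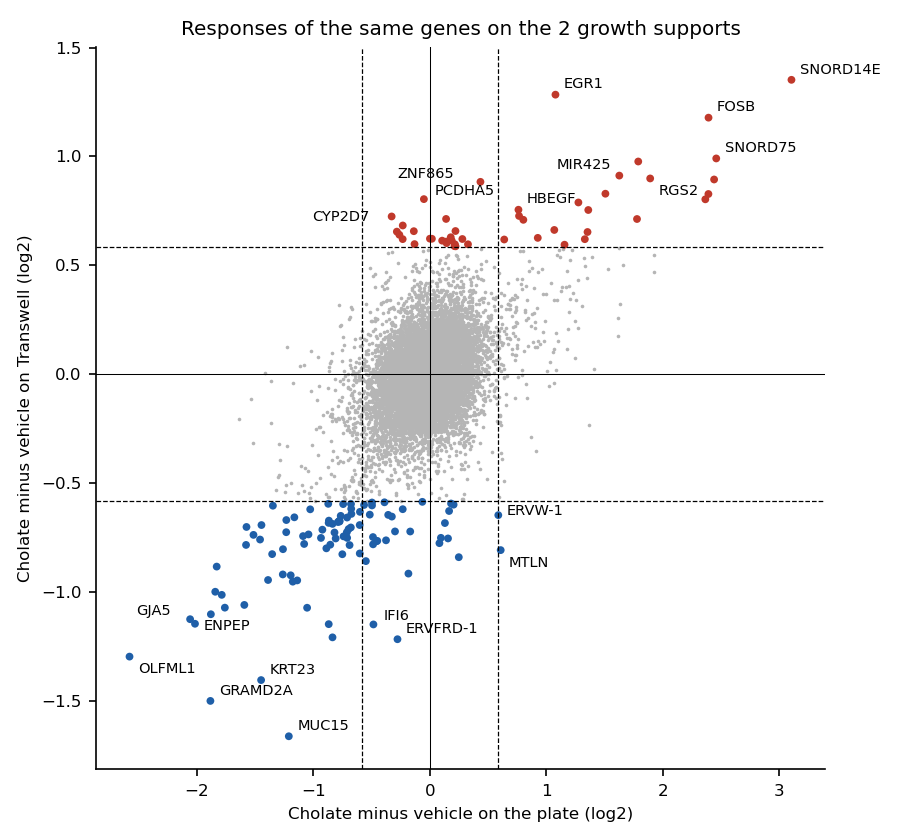
Difference between cholate and vehicle on Transwell (log2, vertical axis) against that on the plate (log2, horizontal axis) for the 12900 genes above the floor. Genes called higher on Transwell are red and lower are blue, and dashed lines mark 1.5-fold. Of the red points, 23 lie to the right of the right dashed line, and of the blue points 65 lie to the left of the left one.

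The 23 higher genes called on both supports differed from the other 23 in level. Their median vehicle value on Transwell was 7.05, against 5.50 for those called on Transwell alone, and of the latter 17 lay within 0.25 of 0 on the plate and 8 had the opposite sign. SNORD14E (plate difference 3.10), FOSB (2.39), LOC731157 (2.39), RGS2 (1.89), H2AC11 (1.78), MIR425 (1.63) and NR4A2 (1.27) were larger on the plate, HBEGF stood at 0.76 on each support, and EGR1 was smaller there (1.08), with plate values of 10.34 and 11.41. ZNF865 (0.43), FABP2 (0.22), DUX4 (0.14), PCDHA5 (-0.05), CIMIP2C (-0.23) and CYP2D7 (-0.33) were not called on the plate, and whether their responses differ between supports was not tested.

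Among genes called lower, OLFML1 (-2.58 on the plate), GJA5 (-2.06), ENPEP (-2.02), GRAMD2A (-1.89), ACTG2 (-1.88), VGLL1 (-1.84), ANXA1 (-1.79) and OLR1 (-1.76) were larger in size on the plate. MUC15 was smaller there (-1.21), and KRT23 (-1.45) and NPPB (-1.05) were close to their Transwell values. ERVFRD-1 read 9.24 and 8.97 on the plate (-0.28) and IFI6 read 10.83 and 10.35 (-0.49), neither of them called. Of the 30 lower genes not called on the plate, 12 lay within 0.25 of 0 and 10 had the opposite sign. ERVW-1 and MTLN were the genes called in opposite directions. ERVW-1, another retroviral envelope gene of placenta, read 7.54 and 6.89 on Transwell (-0.65) but 7.97 and 8.56 on the plate (0.59). MTLN, which encodes a mitochondrial micropeptide, read 5.46 and 4.66 (-0.81) against 5.16 and 5.76 (0.61), with its Transwell cholate value under the floor. With each array centred on its median, the plate values of ERVW-1 (0.52) and MTLN (0.54) were under 1.5-fold.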

How the data were processed

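The authors deposited log2 intensities, 1 per probe set and array, from RMA per the submitters' processing notes, which give no version. RMA corrects background, normalizes between arrays and summarises probes, so a shift common to most transcripts cannot be seen and differences near background are compressed. Per the labels, RNA was pooled from 3 samples for each array. Symbols came from the platform's annotation, checked against RefSeq (GRCh38.p14): 19460 probe sets had 1 symbol (19429 found in RefSeq, 0 renamed), 1754 several and 12083 none listed.

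Log2 differences of the deposited values, cholate minus vehicle, were called at 1.5-fold. With 1 array a side there is no test. Scripts ran in Python 3.11.15 with pandas 2.3.3, and cyclic loess in R 4.3.3 with limma 3.58.1; the counting was tested on simulated data. Alternatives were 3 other scalings, other floors, a 2-fold limit, and other choices of probe set. The rule for named genes took the 20 highest and 20 lowest genes outside the small RNAs, the 8 highest and 8 lowest small RNAs, the 4 largest differences in each of 58 gene lists, and genes called in opposite directions on the supports. The members and lists were chosen with earlier results of these data known, so no list count is independent evidence.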

Additional observations from a re-analysis of the deposited data

Results flagged for a closer look

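ERVW-1 was at least 1.5-fold apart in opposite directions on the supports, at -0.65 log2 on Transwell and 0.59 on the plate. MTLN was too, at -0.81 and 0.61. Both plate values are near the limit: with each array centred on its median, a setting added after seeing the data, they were 0.52 for ERVW-1 and 0.54 for MTLN, under 1.5-fold. After quantile normalization they were 0.59 and 0.53. With 1 array for each condition these differences between supports were not tested.

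Probe sets without a listed symbol entered no comparison. Among 5198 of these that reached the floor, 298 (5.73%) passed 1.5-fold upwards in cholate on Transwell and 137 (2.64%) downwards, against 0.382% and 0.749% of those with 1 symbol, and their median absolute difference was 0.145 log2. The annotation used here lists no gene for them.

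Probe sets with several symbols above the floor numbered 1167, and 6 of them reached 1.5-fold higher in cholate and 5 reached 1.5-fold lower. The higher ones include HSD17B7P2/HSD17B7 (0.65), H2BC18/H2BP1 (0.72) and SNORA33/SNORD101 (0.77). The lower ones are 3 for ANXA8L1/ANXA8 (-0.62 to -0.63) and 2 for FABP5P3/FABP5 (-0.70 and -0.75).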

How the results depend on the processing

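The count of probe sets called higher was 52 as reported, 33 after median centring, 91 with no floor, 21 with a floor at the 60th percentile and 3 at 2-fold. The count called lower was 102 as reported, 55 with the higher floor and 16 at 2-fold. Asking both Transwell values to reach the floor, a setting chosen after seeing the data, gave 43 higher and 95 lower. The integrated stress response list went from 2 called higher to 0 after median centring and 1 after quantile normalization. The share of genes called higher that were also called on the plate went from 50% to 67.86% after median centring. For genes called lower it went from 68.4% to 34.74% with 2-fold asked on the plate. The trophoblast median was -0.35 over members above the floor and -0.08 over all measured. A higher floor or limit leaves fewer probe sets to call. Median centring moved each Transwell difference by -0.047 log2, and the trophoblast medians cover different members. For the remaining shifts the cause was not tested. Of 58 list medians, 34 kept their sign under every setting and 24, mostly near 0, did not. The 260 named genes shifted by at most 0.055 log2 under the 3 scalings, and 3 values, all of genes not called, changed sign. Counts kept within 1.5 times in the other settings run. No paired analysis was possible because each condition had 1 array. The number of arrays limits the precision.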

Other observations

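Of the genes at least 1.5-fold apart on Transwell, 14 of the 46 higher and 29 of the 95 lower were on a gene list. The following were on none and were chosen after their values were seen. CD24, a surface glycoprotein, read 8.28 log2 in vehicle and 7.36 in cholate (-0.92), with -1.26 on the plate. PTN, the secreted growth factor pleiotrophin, read 6.84 and 5.96 (-0.88, plate -1.83), and NRP1, a coreceptor for semaphorins and VEGF, read 7.66 and 6.85 (-0.80, plate -1.26). FABP7, a fatty acid binding protein, read 9.26 and 8.47 (-0.78, plate -1.58). The folate receptor FOLR1 (-0.66) and the endocytic receptor LRP2 (-0.65) were lower too, and so were the retroviral envelope gene ERVH48-1 (-0.80) and DPPA3 (-0.76), a gene of early embryos and germ cells.

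Lists of metabolism and housekeeping held no called gene. Over all genes 0.357% were called higher, 0.736% were called lower, and 53.5% lay below 0, so shares near that last value say little about a list. Glycolysis and HIF target genes lay below 0 in 21 of 32 cases (median -0.03), with HK1 at -0.49. Respiratory chain genes lay below 0 in 18 of 28, although the sign of their median changed under cyclic loess. Lysosome and autophagy genes lay below 0 in 20 of 29. Of 15 aryl hydrocarbon receptor and CYP genes, 12 lay below 0 (median over all measured -0.08), with the vitamin D receptor VDR at -0.36. Among 15 iron genes the ferric reductase CYBRD1 was lowest (-0.52), and among 20 metallothionein and zinc transporter genes SLC39A8 was (-0.39).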
